A study of Mus musculus with 28 samples.

Results

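Wide H3K9ac domains are long unbroken stretches of chromatin that carry acetylation of lysine 9 on histone H3, mapped here in P19 cells after 4 days of retinoic acid. They were selected on the measured H3K9ac peaks themselves. Each of the 2 day 4 H3K9ac peak lists was merged where peaks overlapped or touched, the bases covered in both lists were kept, and every resulting region of at least 4000 bp was called a domain. There were 997 such domains among 34801 reproducible H3K9ac regions. The others were 6878 regions of 2000 to 3999 bp and 26926 regions under 2000 bp. The domains held 5948578 bp, with a median width of 4986 bp and a range of 4001 to 87962 bp. Because the width of the day 4 peaks defined the set, the widths are given as a description only.

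P19 is a mouse embryonal carcinoma line, a pluripotent tumour-derived culture that turns into neural cells when it is aggregated with retinoic acid. The study followed undifferentiated cells (day 0), cells after 2 days with 1 µM retinoic acid plus either 1 µL of the solvent DMSO or 1 µL of 10 mM MS-275 added on day 1, cells after 4 days of retinoic acid (called neural stem and progenitor cells in the labels), and cells at day 8. The day 8 cells had been replated after 4 days of retinoic acid on poly-D-lysine in DMEM/F12 with 2% B27 and grown for 4 more days. Every group came from this single cell line, and all groups after day 0 had received retinoic acid. Peak lists from native (uncrosslinked) ChIP-seq of H3K9ac, H3K9cr (crotonylation) and H3K18la (lactylation), and from ATAC-seq, were used from day 4 with 2 lists each. The day 2 ChIP-seq gave 1 list per mark and treatment, so no value from day 2 chromatin has a replicate. Polyadenylated RNA was sequenced in 2 libraries for each of the 5 groups, with 18115926 to 19586374 estimated counts per library. The series describes its replicates as biological. All p-values below rest on the spread between the 2 libraries within a group, estimated jointly over the 5 groups and with information shared across genes. They concern one cell line.

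Histone acetylation loosens the contact between histones and DNA and is placed at the starts of active genes and at enhancers. Crotonylation and lactylation are acylations of the same kinds of lysine, and several acetyltransferases and deacetylases act on more than one of them. MS-275 (entinostat) inhibits class I histone deacetylases, which remove acetyl and crotonyl groups. Most active genes carry a short acetylated region at their start, whereas genes for developmental regulators such as the Hox clusters can be acetylated along their whole length.

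The widest domains lay on developmental regulators, and the 4 widest lay in 3 Hox clusters, whose genes encode the homeodomain factors that set position along the body axis. On GRCm38, the HoxB domain (chr11:96268565-96356526, 87962 bp) held Hoxb2 to Hoxb9. The HoxC domain (chr15:102995537-103043584, 48048 bp) held Hoxc4 to Hoxc6. In HoxA, 2 neighbouring domains of 41205 bp and 35493 bp (the second at chr6:52191552-52227044) held genes that included Hoxa2 to Hoxa7. Next came 29980 bp with the noncoding RNA gene C130071C03Rik (chr13:83712965-83742944), 26401 bp with Mir9-3hg (chr7:79495717-79522117), and 23913 bp at Hoxd4 (chr2:74718842-74742754). The 22985 bp domain at Pou3f2 (chr4:22476562-22499546), a POU-domain factor of neural progenitors, was the eighth. The ninth to the twelfth were a domain of 18252 bp at Meis1, one of 18104 bp at Mllt10 and Skida1, one of 18078 bp within the Meis1 gene body, and one of 17757 bp at Meis2. MEIS proteins bind DNA together with HOX proteins. At the threshold, the narrowest domains were 4001 bp (Rras and Scaf1), 4006 bp (Dedd2 and Zfp526) and 4008 bp (Ewsr1 and Rhbdd3). The widest regions left out were 3997, 3995 and 3995 bp and held no protein-coding start.

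Several of these domains hold microRNAs, and their mature sequences are shown because the polyadenylated RNA libraries do not measure them. Of 1005 mouse hairpins in the RefSeq table (GRCm38.p6), 23 lay in 21 domains. Capitals mark the seed, bases 2 to 8, which pairs with targets.
miR-10a-5p (HoxB domain): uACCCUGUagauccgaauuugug
miR-10b-5p (Hoxd4 domain): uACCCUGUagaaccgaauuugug
miR-9-5p (C130071C03Rik and Mir9-3hg domains): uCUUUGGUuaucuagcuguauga
miR-125b-5p (domain of 7861 bp): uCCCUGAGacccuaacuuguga
let-7e-5p (Spaca6 domain, 5038 bp): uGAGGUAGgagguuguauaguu
The 2 miR-10 genes, in different Hox clusters, share 1 seed. The mature miR-9-5p is encoded in both the fifth and the sixth widest domain, at Mir9-2 and Mir9-3. The remaining hairpin of that family, Mir9-1, was 6859 bp from the nearest domain. Mir196a-1 was 3300 bp outside the HoxB domain and Mir196b was 3037 bp outside the second HoxA domain. Mir125a lay 215 bp outside the domain that held let-7e.

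The start of a gene is where acetylation is usually found, and 735 of the 997 domains (73.7%, Wilson 95% interval 70.9 to 76.4) held the start of a protein-coding gene. The share was 73.8% for regions of 2000 to 3999 bp and 21.2% for regions under 2000 bp. In 127 domains there were starts of 2 or more genes. Of the 262 domains with no protein-coding start, 64 held the start of a long noncoding RNA gene, 155 lay in gene bodies and 107 lay outside protein-coding genes. The 4 widest without a start were those at C130071C03Rik, at Mir9-3hg, within Meis1, and the 16759 bp domain at Mir124-2hg (chr3:17782397-17799155). Domains were sometimes neighbours, with 55 pairs of adjacent domains within 10000 bp of each other. The annotation gave no strand for 20.1% of genes, and either end of such a gene was counted as a start. This applied to 177 of the 872 protein-coding genes with a start in a domain, including Hoxa4, which was placed in both HoxA domains.

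Promoter sequence could be set beside the domains where the RefSeq table held the 250 bases before a start. It did so for 369 genes with a start in a domain. CG dinucleotides, the target of DNA methylation and dense in many housekeeping and developmental promoters, numbered 17 per window at the median for these genes. The median was 18 for genes in regions of 2000 to 3999 bp, 13 under 2000 bp, 2 for genes with no reproducible H3K9ac region, and 7 over all 10582 windows. A set of 4 windows is shown, on GRCm38.p6, 5′ to 3′ on the strand of the gene, with CG in capitals. It holds Pou3f2, the widest single-gene domain with a window (chr4:22488367-22488616, minus strand), Neurog1 (chr13:56252181-56252430, minus strand), Fabp7 (chr10:57784673-57784922, plus strand) and, for contrast, the collagen gene Col3a1, which had no reproducible H3K9ac region (chr1:45311288-45311537, plus strand).
Pou3f2: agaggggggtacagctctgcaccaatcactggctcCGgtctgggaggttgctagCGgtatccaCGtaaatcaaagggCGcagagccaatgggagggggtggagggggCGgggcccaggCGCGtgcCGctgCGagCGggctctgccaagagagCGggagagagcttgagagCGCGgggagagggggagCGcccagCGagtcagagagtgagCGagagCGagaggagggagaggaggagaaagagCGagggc
Neurog1: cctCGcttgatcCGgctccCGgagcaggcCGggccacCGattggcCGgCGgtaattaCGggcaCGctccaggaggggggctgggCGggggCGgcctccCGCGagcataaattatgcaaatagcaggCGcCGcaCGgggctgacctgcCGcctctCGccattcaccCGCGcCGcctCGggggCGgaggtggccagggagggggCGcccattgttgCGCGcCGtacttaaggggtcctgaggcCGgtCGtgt
Fabp7: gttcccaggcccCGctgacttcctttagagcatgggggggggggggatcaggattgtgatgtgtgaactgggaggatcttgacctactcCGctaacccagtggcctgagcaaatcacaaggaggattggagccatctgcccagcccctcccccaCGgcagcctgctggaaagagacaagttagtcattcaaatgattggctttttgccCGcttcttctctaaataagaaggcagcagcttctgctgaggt
Col3a1: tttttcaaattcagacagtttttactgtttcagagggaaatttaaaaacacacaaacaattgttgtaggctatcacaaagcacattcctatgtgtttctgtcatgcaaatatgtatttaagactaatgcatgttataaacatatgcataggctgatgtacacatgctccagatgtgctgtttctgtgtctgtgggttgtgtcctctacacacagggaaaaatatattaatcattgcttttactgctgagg
CG was found 18 times in the Pou3f2 window, 29 times in Neurog1, 4 times in Fabp7 and 0 times in Col3a1, so domains formed at both CG-dense and CG-poor starts. The letters ATGCAAAT, the octamer read by POU-domain factors, were searched on both strands. They were present in 14 of the 369 windows (3.79%), against 1.54% in regions of 2000 to 3999 bp and 1.92% of all windows. Those 14 included the histone genes H2ac8 and H2bc8 (both with a domain width of 7293 bp), H2bc3 and H2aw. Windows were counted per gene, and overlap between the windows of neighbouring genes was not checked. Of the windows shown 2 hold the letters, at -138 in Neurog1 and at -148 in Col3a1. The palindrome TGACGTCA, the cyclic AMP response element, was in 10 of 369 windows (2.71%), against 3.79% of the windows in regions of 2000 to 3999 bp and 1.89% of all. Histone genes were also among these 10: H4c8, H4c1, and H2ac11 and H2bc11 (both with a domain width of 4822 bp). CCAAT, on either strand, was in 45.5%, against 38.3% and 37.4%. TATAAA, read on the strand of the gene, was in 8.13% of the domain windows, 3.32% of the windows in regions of 2000 to 3999 bp and 10.9% of all. The string of 2 copies of GGTCA with any 5 bases between them, on either strand, was in 0 of the domain windows and in 5 of all 10582. These letter counts describe the windows and say nothing about binding.

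H3K9cr lay over nearly the whole of the domains, while H3K18la covered less of them and ATAC-seq peaks very little. H3K9cr peaks covered 90.7% of the domain bases in replicate 1 and 93.6% in replicate 2, and 88.9% were covered in both. H3K18la peaks covered 72.4% and 72.9%, with 66.4% in both lists. ATAC-seq peaks, which mark accessible DNA, covered 9.82% and 7.98% of the bases, although 88.6% and 84.5% of domains contained at least 1. In regions of 2000 to 3999 bp the cover in both lists was 86.4% for H3K9cr, 54.0% for H3K18la and 15.5% for ATAC-seq. Within each mark the 2 replicate lists differed by less than the gap between marks. With 2 lists a mark these shares carry no test.

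**Figure D1:**
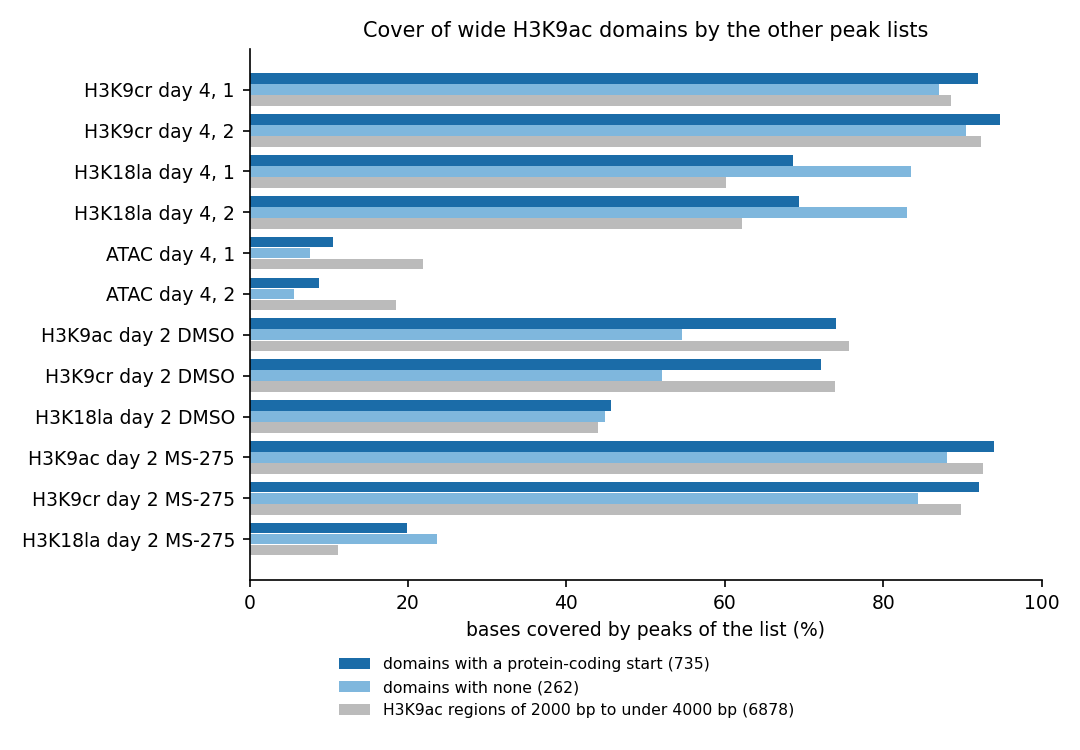
Share of bases (%) covered by the peaks of each of the other 12 lists, in domains with and without a protein-coding start and in H3K9ac regions of 2000 to 3999 bp; each bar is 1 peak list, and 1 and 2 are the day 4 replicates. H3K18la covers more of the domains with no protein-coding start than of those with one in both day 4 lists, and ATAC-seq covers at most 21.9% in any class.

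Wide H3K9cr regions were almost a subset of the domains, and wide H3K18la regions were not. By the same rule, 584 reproducible H3K9cr regions reached 4000 bp. Of these, 582 (99.7%) overlapped a domain, and 573 of the 997 domains (57.5%) held one. H3K18la gave 674 such regions, of which 288 (42.7%) overlapped a domain, and 271 domains (27.2%) held one. The wide H3K18la regions therefore lay mostly elsewhere, whereas all but 2 of the wide H3K9cr regions were on a domain.

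H3K18la cover was higher in domains away from protein-coding starts. In domains with no protein-coding start it covered 77.8% of bases in both lists, against 62.5% in domains with one. The median per domain was 85.3% against 60.4%. At least 90% of the domain was covered in 114 of the 262 domains without a start and in 61 of the 735 with one. H3K9cr went the other way, with 84.5% of bases in domains without a start and 90.5% in domains with one. An ATAC-seq peak present in both replicates touched 64.9% of the domains without a start and 81.4% of those with one.

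In all, 7 domains held no base of H3K18la shared by both lists. They lay at Nrxn3, Slc17a6, Il1rapl1, Pcdh11x, Pcdh17, Sv2c and Pcdh19, genes for synaptic and cell adhesion proteins and, for Slc17a6, the vesicular glutamate transporter of excitatory neurons. The Slc17a6 domain, 5061 bp wide (chr7:51621026-51626086), was covered for 90.8% by H3K9cr in both lists. The least H3K9cr was found in domains within Prtg (34.2% of bases in both lists), Akap13 (38.3%) and Spsb4 (41.8%), and at Nrxn3 (45.6%). All 7 genes without H3K18la were named after their values were seen.

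H3K18la cover was higher in the wider domains. It was 61.0% of bases in the 501 domains of 4 to 5 kb, 67.5% in the 167 of 6 to 8 kb, and 91.2% in the 8 of at least 20 kb. H3K9cr went from 86.8% in the narrowest to 98.2% in the widest of these classes. ATAC-seq peaks became sparser, from 2.29 peaks per 10 kb in domains of 4 to 5 kb to 0.443 in those of at least 20 kb. The widest class rests on 8 domains, and 5 of them are Hox domains.

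The HoxB domain was a single peak in each day 4 H3K9ac list (88214 and 88088 bp) and in each H3K9cr list. H3K18la crossed it in 5 and 3 peaks that together covered 98.6% and 99.2% of its bases. ATAC-seq placed 5 and 3 short peaks on it, which covered 0.912% of its bases in both lists. At day 2 with DMSO the same stretch was split into 10 H3K9ac peaks, the widest of 36570 bp, that covered 79.2%. With MS-275 it was 2 H3K9ac peaks, the widest of 69781 bp, that covered 99.7%.

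**Figure D2:**
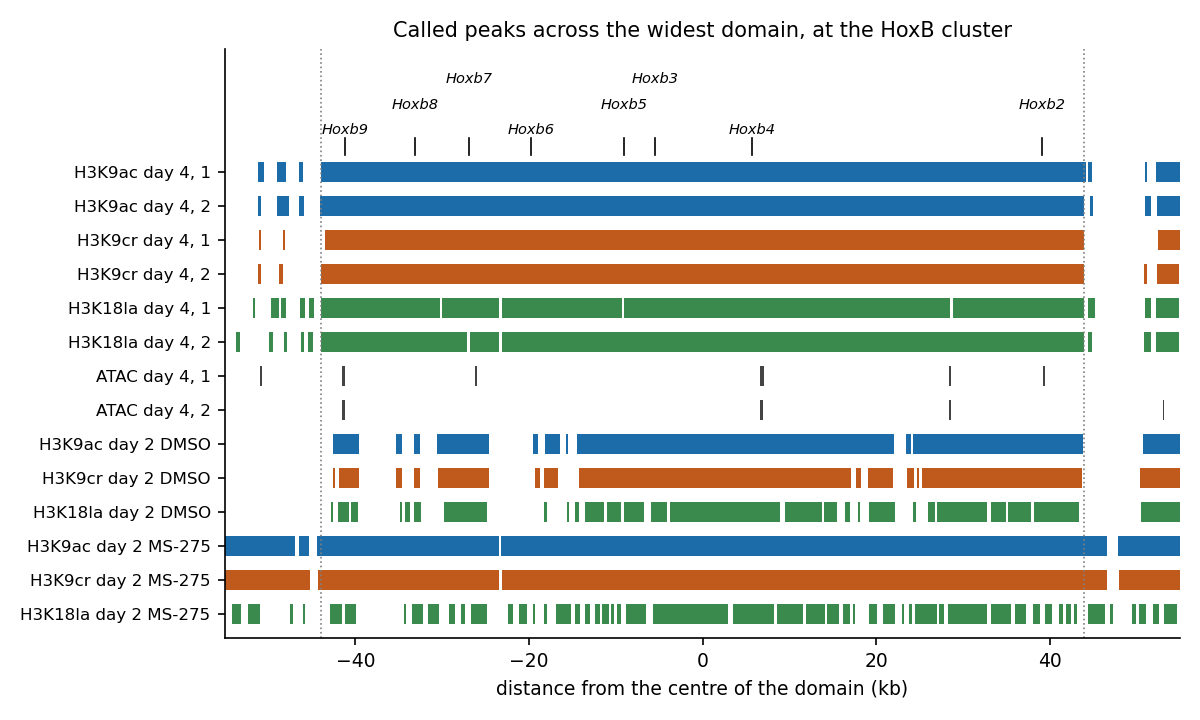
Called peaks of the 14 lists (rows) across the HoxB domain, with the distance from its centre in kb; dotted lines mark the domain's ends and ticks the lower-coordinate annotated start of each gene, or its lower end where no strand was given. At day 4 both H3K9ac and both H3K9cr lists are unbroken, while at day 2 with DMSO H3K9ac is broken into 10 peaks, the widest of them from -14.5 to 22.1 kb.

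Part of the domain bases already carried H3K9ac peaks at day 2. With DMSO, H3K9ac covered 69.0% of the domain bases, H3K9cr 67.0% and H3K18la 45.4%. In regions of 2000 to 3999 bp the H3K9ac cover was 75.7%. Domains with a protein-coding start were covered for 74.0% and those without one for 54.6%. Of the wide domains with low cover, the Mir9-3hg domain stood at 11.7% and the Uncx domain (12581 bp, chr5:139542717-139555297) at 0%. The HoxA domain with Hoxa7 was covered for 60.8%. The Meis1 domain was at 90.8%.

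With MS-275, H3K9ac covered 92.5% and H3K9cr 90.2% of the domain bases, while H3K18la covered 20.8%. The whole MS-275 lists moved in the same directions. The H3K9ac list held 122012624 bp with MS-275 and 34200086 bp with DMSO, and the H3K18la list held 16327121 bp and 26848613 bp. In regions of 2000 to 3999 bp H3K9ac covered 92.5% and H3K18la 11.2%, so H3K9ac cover with MS-275 was the same there as in the domains. The Uncx domain was covered for 100% and the domain at Slc32a1, the vesicular transporter for inhibitory transmitters, for 78.9%, both from 0% with DMSO. By contrast, the Nhlh1 domain reached 24.6% and the Slc17a6 domain 14.5%. Sequencing depth and caller settings are not stated for the day 2 libraries, and their part in these differences was not tested.

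RNA was read from 857 of the 872 genes with a start in a domain, of which 847 passed the filter on low counts and were tested among 17789 genes. Levels are in CPM, the usual scale of a gene's estimated counts relative to its library's total, here with TMM scaling, and a gene was called where the Benjamini-Hochberg adjusted p of the quasi-likelihood test in edgeR was under 0.05. At least 1 CPM was reached by 97.1% of the 857 genes at day 4 and by 86.1% at day 0. Among pluripotency markers (5 genes) the summed level was 2242 and 2216 CPM at day 0 and 3.15 and 4.55 CPM at day 4. The 6 neural progenitor markers summed to 407 and 419 CPM at day 0 and to 1042 and 968 CPM at day 4. The 6 neuronal markers went from 359 and 372 CPM to 2537 and 2443 CPM, and the 4 mesenchymal markers from 41.4 and 36.9 CPM to 556 and 635 CPM, most of it Col3a1. Endodermal markers (4 genes) summed to 0.841 and 0.897 CPM at day 0 and to 0.840 and 1.00 CPM at day 4, and heart markers (3 genes) to 12.7 and 12.6 CPM and then to 0.682 and 0.500 CPM. The 4 neural crest markers summed to 67.0 and 65.2 CPM at day 0 and to 87.0 and 76.9 CPM at day 4, with members in both directions. On means, Tfap2a went from 0.818 to 70.2 CPM and Snai2 from 0.689 to 4.87 CPM. Foxd3 went from 62.3 to 6.81 CPM and Sox10 from 2.30 to 0.0262 CPM. The labelled neural identity thus had its markers, beside neuronal and mesenchymal RNA. In such bulk samples fewer cells of a type and less RNA per cell cannot be told apart, and the part of cell mixture in the results below was not tested.

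From day 0 to day 4 the domain genes rose more often than they fell. They were selected on H3K9ac at day 4, and the part of that selection in the rise was not tested. Of the 847 tested, 544 were higher (64.2%, against 36.2% of all genes tested) and 199 were lower (23.5%, against 36.1%), with a median log2 change of 0.77 against 0.01 over all genes. In regions of 2000 to 3999 bp 43.1% were higher and 37.3% lower, with a median of 0.07. The share that rose was larger in wider domains. In domains of 4 to 5 kb 243 of 427 genes were higher and 128 lower, with a median of 0.41. In domains of 8 to 10 kb 30 of 35 were higher and 4 lower (median 3.80), and in those of at least 10 kb 53 of 60 were higher and 5 lower (median 6.48). The last median was the same with the 14 genes that were at 0 at day 0 set to their lower bounds. Genes that share a domain were counted separately, so they are not independent members. The class of at least 10 kb includes the genes of the widest Hox domains, among them Hoxb2 to Hoxb9 in 1 domain. The part of the Hox clusters in the trend with width was not tested.

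**Figure D3:**
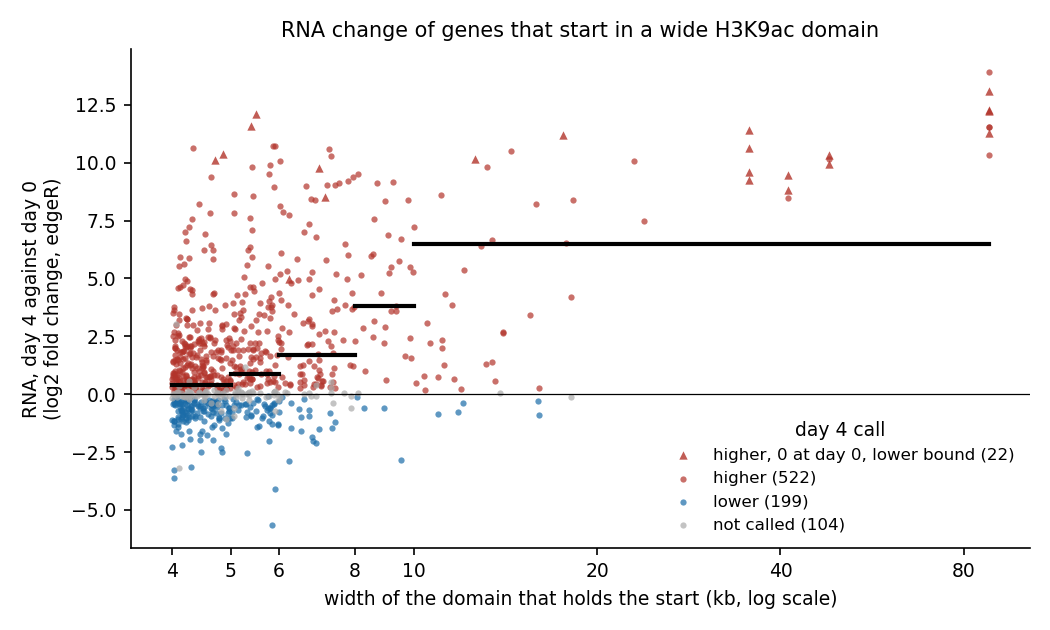
Log2 fold change of RNA at day 4 against day 0 (edgeR, all libraries in 1 fit) for the 847 tested genes by the width of their domain in kb (log scale); colours give the call, triangles are 22 genes at 0 in both day 0 libraries, drawn at their lower bound, and black bars are medians per width class. The medians rise from 0.41 in domains of 4 to 5 kb to 6.48 in those of at least 10 kb.

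Hox genes with a start in a domain rose from near 0. Of 39 Hox genes, 20 started in a domain, and all 20 were higher at day 4 than at day 0. Over the whole list 32 were tested, of which 28 were higher and 3 lower. Hoxb3 was at 0 in both day 0 libraries and at 688 and 709 CPM at day 4, which is at least 8787-fold higher against a floor of 3 counts over the day 0 libraries. On the same reckoning Hoxb6 (404 and 392 CPM at day 4), Hoxb5 (387 and 379 CPM) and Hoxa5 (208 and 221 CPM) were at least 5004-fold, 4819-fold and 2699-fold higher. Hoxb9 was at 0.473 and 1.57 CPM at day 0 and at 1352 and 1283 CPM at day 4, a 1303-fold rise (adjusted p = 3.96e-18, edgeR). Without the first day 0 library that rise was 832-fold, and without the second it was 2734-fold.

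The cofactor and neural progenitor genes in the widest non-Hox domains rose as well. Meis1 stood at 1.05 and 0.897 CPM at day 0 and at 318 and 332 CPM at day 4, a log2 change of 8.37 (SE 0.0918, adjusted p = 3.66e-19, edgeR). Meis2 went from 2.26 and 2.41 CPM to 214 and 221 CPM. Both libraries of each day lay far apart from those of the other. Pou3f2 stood at 0.158 and 0.0561 CPM at day 0, at 36.2 and 39.5 CPM at day 2 with DMSO and at 129 and 117 CPM at day 4. Its log2 change from day 0 to day 4 was 10.06, or 10.93 without the first day 0 library. Pax3, a dorsal neural tube factor, was at 0 at day 0 and at 190 and 181 CPM at day 4, at least 2334-fold higher. The level of Mllt10, a component of a complex that methylates histone H3 at lysine 79, was 92.2 and 91.0 CPM at day 0 and 85.6 and 81.3 CPM at day 4, and it was not called (adjusted p = 0.101, edgeR).

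Neural progenitor genes were the list most often found in a domain. Of 34 such genes 23 (67.6%) had a start in one, against 3.98% of all placed protein-coding genes. Immediate early genes came close, at 66.7%. Of the 21883 placed genes 9715 had no reproducible H3K9ac region. The lists were chosen with earlier results of these data known, so their shares are given as a description only. At day 4, 22 of these 23 were higher than at day 0 and 1, Zic5, was lower. Over the whole list 31 of 34 were higher and 2 lower, so the rise was not limited to the domain genes. All 6 progenitor markers were among the 23 in domains. Sox2, which was expressed before differentiation, was at 194 and 198 CPM at day 0 and at 282 and 269 CPM at day 4, a log2 change of 0.49 (SE 0.0508, adjusted p = 1.79e-07, edgeR). Pax6 was at 1.47 and 3.20 CPM at day 0 and at 47.9 and 44.2 CPM at day 4. Its log2 change was 4.31, or 4.96 without the second day 0 library. Fabp7, the radial glial fatty acid binding protein whose promoter window held few CG, went from 1.103 and 0.729 CPM to 212 and 207 CPM (226-fold). The wide domains thus covered both a gene that was already expressed, Sox2, and genes that were near 0.

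Proneural and neuronal genes were in domains in 19 of 35 cases, and 18 of the 19 were higher at day 4, with none lower. The whole list had 31 of 33 tested genes higher and 1 lower. Stmn1, a tubulin-binding protein, was not called, at 695 and 697 CPM at day 0 and 713 and 757 CPM at day 4. Neurog1 and Nhlh2, basic helix-loop-helix factors of young neurons, were both at 0 at day 0. Neurog1 reached 115 and 96.4 CPM at day 4 (at least 1328-fold) and Nhlh2 261 and 228 CPM (at least 3077-fold). Dcc, the netrin receptor of growing axons, went from 0 to 365 and 333 CPM (at least 4393-fold). Of the 6 neuronal markers only Tubb3 started in a domain, and the other 5 were in regions of 2000 to 3999 bp.

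Signalling and immediate early genes also had starts in domains. Of 28 growth and patterning genes 16 were in a domain (13 higher and 2, Spry2 and Dusp6, lower at day 4). In that whole list 16 were higher and 8 lower. Of 20 Notch pathway genes 7 were in a domain, all higher, among them the ligand Dll1 and the target Hes5. Of all 20 Notch genes 15 were higher and 2 lower. The retinoic acid pathway had 7 of 22 in a domain (5 higher and 1, the orphan receptor gene Nr6a1, lower), and of all 22 genes 14 were higher and 5 lower. Immediate early genes, which respond within minutes to growth signals, had 12 of 18 in a domain (9 higher and 2, Egr2 and Atf3, lower). All 18 together gave 13 higher and 3 lower. Fos stood at 64.2 and 77.2 CPM at day 0, at 0.733 and 1.02 CPM at day 2 with DMSO and at 268 and 298 CPM at day 4, a log2 change from day 0 to day 4 of 2.00 (SE 0.283, adjusted p = 7.43e-06, edgeR).

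In the remaining lists the shares in domains went from 0 to 35.7%. Pluripotency genes had 2 of 24 (8.33%). Ribosomal protein genes, highly transcribed in every cell, had 2 of 30 (6.67%), Rpl18 and Rpl7, with 24 more in regions of 2000 to 3999 bp. Genes of the primitive streak, endoderm and heart had 0 of 20 and mesenchymal genes 0 of 15. Mesenchymal genes were nonetheless higher at day 4 in 12 of 15 cases and lower in 3. Neural crest genes had 5 of 14 (Tfap2a, Msx1, Twist1, Sox9 and Tfap2b), all of them higher at day 4. Of the 14 neural crest genes 11 were higher and 2 lower. Genes for enzymes and readers of histone acylation had 4 of 26 (Brd2, Mllt3, Ep300 and Kat6b).

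**Figure D4:**
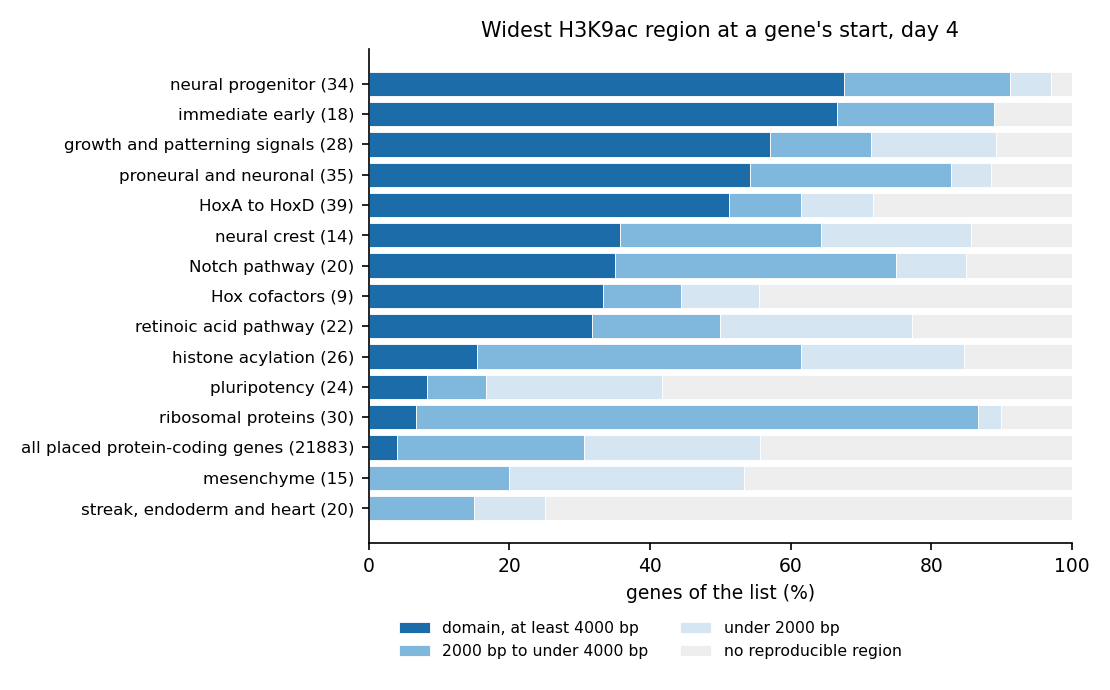
Share of each gene list (%, list size in brackets) by the widest reproducible H3K9ac region at a start at day 4. Domains hold over 50% of the neural progenitor, immediate early, growth and patterning, proneural and Hox lists, and 3.98% of all placed genes.

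Some genes with a wide domain at day 4 had less RNA than at day 0. Tmem88 stood at 91.5 and 92.6 CPM at day 0 and at 1.63 and 2.00 CPM at day 4, a log2 change of -5.66 (SE 0.145, adjusted p = 2.10e-15, edgeR), and its domain was 5845 bp wide. Sall4, a pluripotency factor, went from 249 and 239 CPM to 14.6 and 13.7 CPM (17.3-fold lower) with a domain of 5918 bp. Lrp2, a large endocytic receptor, fell from 856 and 852 CPM to 72.3 and 68.0 CPM. Other falls were 9.69-fold for Samd4, 8.91-fold for Jade2 and 7.31-fold for Ajuba. These 6 starts lay in a domain at day 4 although their RNA was higher before differentiation; H3K9ac of day 0 was not analysed here.

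Noncoding RNA genes with a start in a domain were more often higher than lower at day 4. Of 116 tested, 81 were higher, 13 lower and 22 not called at day 4 against day 0 by the same edgeR test, beside 36.2% higher and 36.1% lower over all genes tested. C130071C03Rik, the host of Mir9-2, stood at 1.37 and 2.24 CPM at day 0 and at 311 and 303 CPM at day 4, a 171-fold rise. Mir9-3hg went from 1.21 and 0.561 CPM to 122 and 124 CPM, a 137-fold rise, whose log2 value was 7.76 without the first day 0 library and 6.66 at the lowest with 1 library left out. Mir124-2hg went from 10.6 and 10.7 CPM to 190 and 178 CPM (17.3-fold). These are host transcripts, and the mature microRNAs were not measured.

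The share of genes that rose was larger in domains with less H3K9ac cover at day 2 with DMSO. Every domain carried H3K9ac at day 4 by the rule, so low cover at day 2 means a gain in called cover by day 4. Of 36 domains under 10% covered, 21 were not touched by any day 2 H3K9ac peak, and the 8 tested genes in the 36 were all higher at day 4 than at day 0, with a median log2 change of 8.02. In the 167 domains covered for 10 to 50%, 86 of 88 genes were higher and 2 lower (median 4.46). In the 559 covered for 50 to 90%, 334 of 507 were higher and 108 lower (median 0.83). In the 235 covered for at least 90%, 116 of 244 were higher and 89 lower (median 0.11). Over all genes tested 36.2% were higher and 36.1% lower, with a median of 0.01. The share that was lower in the class of at least 90% was close to that of all genes. The class under 10% is small, and its 36 domains include only 8 with a protein-coding start.

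From day 4 to day 8 more of the domain genes were lower than higher. Of the 847 genes 371 were lower (43.8%, against 19.8% of all genes tested) and 195 higher (23.0%, against 21.7%), with a median log2 change of -0.13. In regions of 2000 to 3999 bp 27.4% were lower and 21.9% higher. This comparison shares the day 4 libraries with that of day 4 against day 0, so the 2 are not independent. The genes were also selected on H3K9ac of day 4, the day common to both comparisons. The part of that selection in the rise before day 4 and the fall after it was not tested. Of the 20 Hox genes in domains 14 were lower and 1, Hoxa4, higher at day 8, and of all 32 tested Hox genes 17 were lower and 4 higher. The Hoxa4 difference was 0.24 on the log2 scale (adjusted p = 0.0267, edgeR), and its call was lost with DESeq2, without the low-count filter, and without the first day 8 or either day 4 library. Hoxb9 went from 1352 and 1283 CPM at day 4 to 483 and 416 CPM at day 8, a log2 change of -1.55 (SE 0.0824, adjusted p = 2.69e-10, edgeR), and Hoxc5 was at 76.7 and 78.3 CPM and then at 84.0 and 79.0 CPM (not called).

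Among protein-coding domain genes with at least 5 CPM at day 4, the 6 largest falls by day 8 were those of Sp5, Wnt1, F3, Fos, Msx1 and Stra6l. Sp5, a target of Wnt signalling, went from 42.7 and 45.3 CPM to 1.55 and 2.60 CPM (21.2-fold lower). Wnt1, a ligand of the dorsal midline, went from 80.7 and 95.6 CPM to 5.94 and 7.79 CPM, and Msx1 from 109 and 125 CPM to 12.04 and 12.29 CPM. The coagulation initiator F3 and the Stra6l gene also fell, by 3.41 and 3.07 on the log2 scale. Of the 12 immediate early genes in domains 11 were lower, and over the whole list 17 of 18 were lower and 0 higher. The day 8 libraries differed, however. Fos was at 45.02 and 12.1 CPM, with a log2 change of -3.30 that became -4.56 without the first and -2.66 without the second day 8 library. Junb moved likewise, from -2.93 to -3.98 without the first day 8 library.

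By the same limits, on the day 8 level, Slc17a6 was among the 6 largest rises by day 8. It was at 14.2 and 12.9 CPM at day 4 and at 85.6 and 89.5 CPM at day 8, a log2 change of 2.69 (SE 0.114, adjusted p = 2.42e-11, edgeR). Fst, the activin-binding protein follistatin, went from 1.102 and 0.944 CPM to 21.9 and 26.96 CPM (23.7-fold). Psd, a guanine exchange factor, went from 25.7 and 20.4 CPM to 112 and 101.2 CPM. The other rises were 2.80 for Shc3, 2.08 for Agap2 and 1.95 for the collagen gene Col2a1 on the log2 scale. The Slc17a6 and Fst domains were called at day 4, when their RNA was lower than at day 8, and both were among the 15 domains with under 10% of H3K18la cover in both lists.

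At day 2 more of the domain genes were lower than higher with MS-275. Against DMSO 464 of the 847 were lower (54.8%, against 31.4% of all genes tested) and 210 higher (24.8%, against 31.9%), with a median log2 change of -0.32 against 0.01. In regions of 2000 to 3999 bp 46.6% were lower and 24.3% higher, with a median of -0.16. The H3K9ac cover of the domains with MS-275 was above that with DMSO, at 92.5% and 69.0%, in separate samples of the same treatments. The summed mesenchymal markers were at 18.6 CPM in both DMSO libraries and at 468 and 434 CPM with MS-275. Col1a1 made up most of the sum with MS-275, at a mean of 3.33 CPM with DMSO and 357 CPM with MS-275. Col3a1, which made up most of the day 4 sum, was at means of 1.92 and 3.95 CPM. The part of these markers in this comparison was not tested.

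Many neural and proneural genes were lower with MS-275, but the marker sums were not. The 6 neural progenitor markers summed to 682 and 690 CPM with DMSO and to 800 and 750 CPM with MS-275. On means, Nes went from 352 to 616 CPM and Pax6 from 16.2 to 44.0 CPM, while Sox1, Sox2, Hes5 and Fabp7 were lower. The 6 neuronal markers summed to 342 and 312 CPM and then to 365 and 378 CPM, with members in both directions. Of the 19 proneural and neuronal genes in domains 14 were lower and 3 (Lhx1, Lhx5 and Stmn1) higher with MS-275. Of the 23 progenitor genes in domains 16 were lower and 6 higher. The whole lists had 18 of 33 tested proneural and neuronal genes lower and 10 higher, and 23 of 34 progenitor genes lower and 9 higher. Beside these, 54.8% of the 847 domain genes were lower and 24.8% higher, and 31.4% and 31.9% of all genes tested. The lower share of the whole proneural and neuronal list was thus close to that of the domain genes in general. Pou3f2 was at 36.2 and 39.5 CPM with DMSO and at 4.06 and 3.98 CPM with MS-275, a log2 change of -3.23 (SE 0.142, adjusted p = 1.31e-11, edgeR). Prdm13, a factor of dorsal spinal interneurons, was 24.8-fold lower at 0.594 and 0.299 CPM against 12.1 and 10.3 CPM. The integrin Itgb8, Igfbp5, Tfap2b and Xkr7 were lower by 23.1-fold, 18.2-fold, 14.8-fold and 12.7-fold. Nhlh1 was lower by 4.04 on the log2 scale (from 7.12 and 6.14 CPM to 0.545 and 0.249 CPM), or by 4.70 without the first MS-275 library. All 7 Notch pathway genes in domains were lower, as were 15 of the 20 in the whole list, with 3 higher. Immediate early genes moved the other way, with 8 of 12 in domains higher and 3 lower, and 12 of all 18 higher and 3 lower. For Fos (adjusted p = 0.0364, edgeR) the call was lost without the second MS-275 library or without either DMSO library.

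Hox genes in domains moved in both directions with MS-275. In all, 12 of the 20 were lower and 5 higher. Over the whole list of 32 tested Hox genes 17 were higher and 12 lower, so the 12 tested outside domains were all higher. In HoxB the genes Hoxb2 to Hoxb5 were lower, Hoxb6 and Hoxb8 were not called, and Hoxb7 and Hoxb9 were higher. Hoxb9 was at 8.95 and 9.33 CPM with DMSO and at 87.5 and 87.7 CPM with MS-275, a log2 change of 3.26 (SE 0.118, adjusted p = 1.38e-12, edgeR), whereas Hoxb5 was at 159 and 165 CPM and then at 59.9 and 58.8 CPM. In HoxA, Hoxa2 to Hoxa5 were lower and Hoxa6 and Hoxa7 higher. Hoxc5 fell from 235 and 247 CPM to 20.01 and 22.9 CPM, by 3.49 on the log2 scale. Genes of a single HoxB domain, covered for 99.7% by H3K9ac with MS-275, thus moved in both directions.

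Among protein-coding domain genes with at least 5 CPM in the higher group, the 6 largest rises with MS-275 were Lhx5 (17.7-fold), Cpt1a (13.5-fold), Rnase4 (11.3-fold), Pax2 (11.2-fold), Hoxb9 (9.59-fold) and H2-DMa (8.42-fold). Cpt1a, the carnitine transferase that admits fatty acids to mitochondria, was at 6.96 and 7.05 CPM with DMSO and at 96.8 and 91.9 CPM with MS-275. Pax2, a factor of the midbrain border and kidney, was at 1.05 and 1.19 CPM and then at 13.8 and 11.5 CPM, while at day 4 it was at 183 and 179 CPM. Lhx5 was at 0.366 and 0.455 CPM with DMSO, at 7.78 and 6.92 CPM with MS-275 and at 95.4 and 81.5 CPM at day 4. For both Pax2 and Lhx5 the level with MS-275 stayed below that of day 4.

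**Figure D5:**
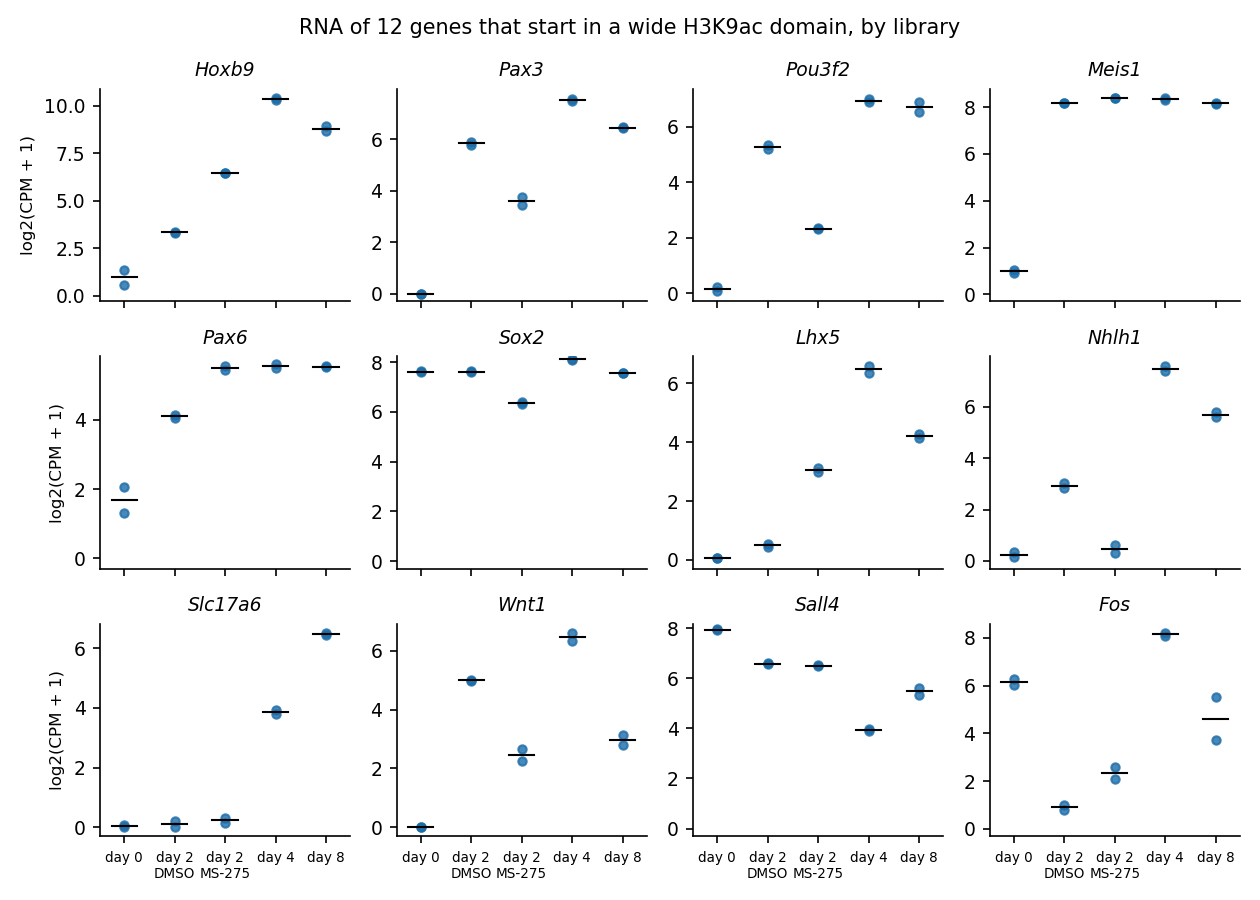
RNA of 12 genes with a start in a domain, as log2(CPM + 1) in each of the 10 libraries; points are libraries and bars the mean of the 2. Hoxb9 and Lhx5 are higher with MS-275 than with DMSO at day 2, Pou3f2, Sox2 and Nhlh1 are lower, and the 2 day 8 libraries of Fos stand apart at 45.02 and 12.1 CPM.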

How the data were processed

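Mouse P19 ChIP-seq, ATAC-seq and RNA-seq files were used as deposited. Per the submitters' processing notes, reads were handled with Bowtie2 2.4.1, MACS2 2.2.7.1, Salmon 1.1.0 and DESeq2 1.26.0 on GRCm38; the labels list input libraries for each ChIP condition, but how they entered peak calling, and the caller's settings, are not stated. The 14 deposited peak tables, 1 per library, list bounds, a summit pileup signal, −log10 p and q values and a fold enrichment ratio, per the file headers. Only bounds were used, apart from a stricter filter on q as an alternative. The RNA table holds estimated counts per gene, per the values deposited by the authors; 55144 of 55385 identifiers matched a symbol.

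Peak lists were merged and intersected in Python 3.11.15 (pandas 2.3.3, numpy 2.4.6). Starts came from RefSeq (GRCm38.p6). Estimated counts were rounded and fitted with edgeR 4.0.16 (TMM, filterByExpr, quasi-likelihood test, limma 3.58.1) in R 4.3.3, with all 10 libraries and 5 groups in 1 fit and adjustment over 17789 genes; the Wilson interval covers counting error only. The scripts were tested on simulated data. Replicates differed by more than sampling noise (chi-square over degrees of freedom 2.82 to 6.28). Replicate numbers did not pair the samples. Alternatives were DESeq2 1.42.0, other filters, widths, libraries and a replicate block.

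The domains and gene lists were chosen with earlier results of these data known. Named genes were those of the 12 widest domains, up to 6 rises and 6 falls per comparison (at least 2-fold and 5 CPM, no overlap between groups, no predicted genes), up to 4 genes per list in the widest domains, the cell type markers, the 3 domains on each side of the threshold, the 4 widest without a start, and those with least H3K9cr or H3K18la. Names outside the rule (among them Slc32a1, Uncx, Neurog1 and the few genes that moved against their list) were chosen after their values were seen. Sequences at ATAC-seq summits were not analysed here, and some named genes are not reported here.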

Additional observations from a re-analysis of the deposited data

How the results depend on the processing

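The number of domains was 2588 at a minimum of 3000 bp, 496 at 5000 bp, 1275 with peaks joined across gaps of up to 500 bp, and 1158 to 1207 from 1 replicate list. The share with a protein-coding start was 76.8% when a start within 1000 bp counted and 60.3% with genes of known strand only (chosen after seeing the data). From 1 replicate list it was 73.8 to 74.6%. Cover by H3K9cr was 90.7 to 93.6% with 1 list. H3K18la cover was 72.4 to 72.9% with 1 list, 65.1% with a −log10 q of at least 5, 61.7% at 3000 bp and 69.6% at 5000 bp. Domains with an ATAC-seq peak in both lists (77.0%) were 84.5 to 88.6% with 1 list, 66.4% under the stricter q, 80.4% at 3000 bp and 73.4% at 5000 bp. H3K9ac cover with DMSO was 72.0% at 3000 bp.

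Domain genes called at day 4 against day 0 (743) numbered 1889 at 3000 bp, 372 at 5000 bp, 711 to 720 without 1 library, 719 with DESeq2 and 589 with known strand only. At day 8 against day 4 (566) they were 1341, 312, 497 to 540, 530 and 455, and with MS-275 (674) they were 1713, 340, 626 to 648, 647 and 539, in the same order. The wider and narrower limits change how many genes are counted. Same-numbered libraries did not deviate together (correlations -0.0306 to 0.0378), and a replicate block gave 739, 570 and 675 calls. Of 2086 values for named genes under the alternatives, none reversed, 75 fell below the threshold and 10 rose above it. The precision of the peak lists is unknown, since no depth was given, and day 2 chromatin has 1 list per condition.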
